A study of Mus musculus with 6 samples.

Results

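The 10 genes described here encode laminin chains (Lama2, Lama4, Lama5, Lamb1, Lamb2, Lamc1 and Lamc3), the nidogens (Nid1 and Nid2) and perlecan (Hspg2). They were taken by gene symbol from a table of 18476 genes measured by bulk RNA sequencing, and all 10 passed the low-count filter that left 14557 genes for testing. The libraries came from femoral arteries of wild-type C57BL/6 mice at day 3 after wire injury, in which a wire is used to damage the vessel from inside. Arteries had received vasostatin-2, a fragment of chromogranin A, or saline around the vessel, with 3 libraries described as biological replicates in each group. No uninjured artery was analysed here, so injury is shared by both groups. The labels name vascular smooth muscle cells, but RNA was extracted from the whole injured artery. Levels are given as the authors' deposited TPM (a transcript abundance scaled by gene length and library), which may be compared between genes. Fold changes come from the estimated counts.

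Laminins are trimers of 1 alpha, 1 beta and 1 gamma chain that polymerise into the sheet of a basement membrane and bind integrins and dystroglycan on the cell surface. Nidogens link the laminin sheet to the type IV collagen network, and perlecan is the heparan sulphate proteoglycan of the same matrix. In an artery this matrix lies under the endothelium and around each smooth muscle cell.

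Total estimated counts were between 19333730 and 20105995 per library. The 10 contractile smooth muscle markers were all detected, with a summed level of 824 to 2170 TPM, but those of macrophages reached 8933 to 13315 TPM and those of adipocytes 4426 to 10267 TPM, so the libraries hold RNA of many cell types. In such samples fewer cells of a type and less RNA per cell cannot be told apart. Saline replicate 2 held the most red cell marker RNA (43391 TPM against 1149 to 9494 TPM elsewhere). Saline replicate 3 held the most Schwann cell marker RNA (968 TPM against 195 to 304 TPM), and vasostatin-2 replicate 3 the most skeletal muscle marker RNA (1607 TPM against 104 to 180 TPM). At an adjusted p of 0.05 (edgeR, quasi-likelihood, adjusted by Benjamini-Hochberg), 0 of the 14557 genes were called (0%), and 1040 (7.14%) had an unadjusted p under 0.05. DESeq2 called 113 (0.776%) and limma-voom 0.

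None of the 10 genes passed the test between vasostatin-2 and saline. edgeR called 0 of 10, DESeq2 called 0 of 10 and limma-voom called 0 of 10, and 0 of 10 had an unadjusted p under 0.05 with edgeR, where 7.14% of all genes tested did (3.29% higher and 3.85% lower). The groups overlapped in CPM (counts scaled to library size) in all 10, while they did not overlap in 12.8% of all genes. Fitted log2 fold changes were above 0 in 5 and below 0 in 5 (49.8% of all genes were above 0), with a median of 0.0015 against −0.00068 for all genes tested. The 95% interval lay within a 2-fold change in either direction for all 10 genes, and within 1.5-fold for 7 of them, the exceptions being Lama2, Lamb2 and Lamc3. In the authors' deposited table the q-values of the 10 genes were 1.00 after rounding.

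**Figure D1:**
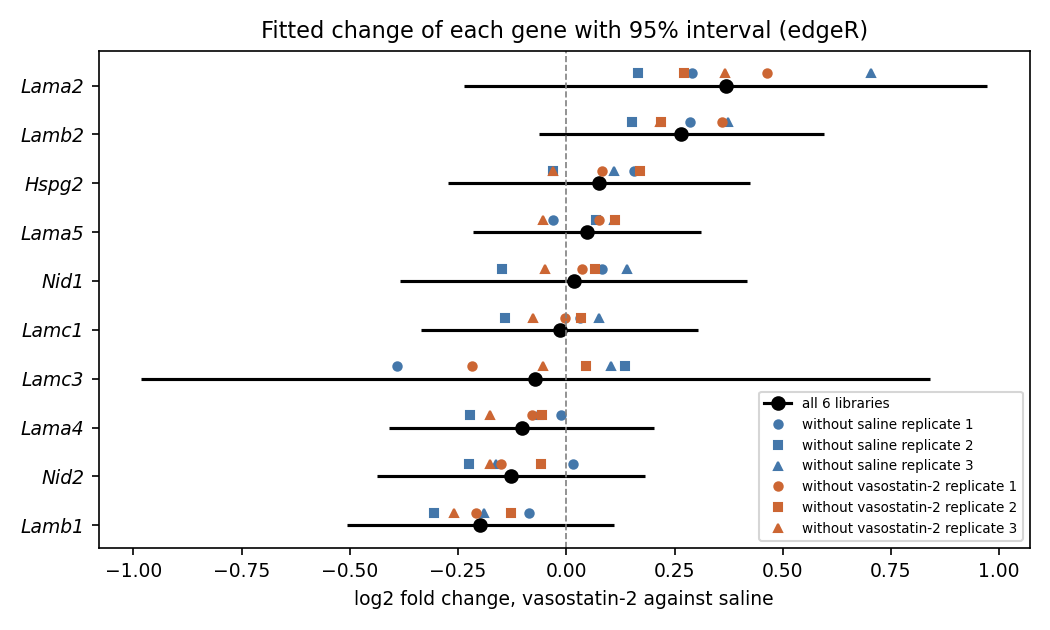
Fitted log2 fold change of each gene (x axis, vasostatin-2 against saline; black points, edgeR on all 6 libraries) with its 95% interval (black lines); the small coloured points give the same value with 1 library left out. All 10 intervals cross 0, the widest is that of Lamc3, from −0.98 to 0.84, and Lama2 moves from 0.37 to 0.70 without saline replicate 3.

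The 2 genes with the lowest unadjusted p were the beta chains, which had opposite signs. The products of Lamb1 and Lamb2 occupy the same place in the trimer. Of the 6 ratios tested below, only that of Lamb1 to Lamb2 did not overlap between the groups. It did not pass its test (exact permutation p = 0.1, adjusted p = 0.6). Sequence before the starts of both genes (RefSeq, GRCm38.p6 build) is printed for that reason. The deposited table places Lamb1 on chromosome 12 from 31265146 to 31329644 and Lamb2 on chromosome 9 from 108479847 to 108490530, both on the plus strand. The 250 bases before the RefSeq start are chr12:31265043-31265292 for Lamb1 and chr9:108479612-108479861 for Lamb2. Starts differ between annotations, so the last 147 bases of the Lamb1 window lie after the deposited start, and the last 126 bases of the Lamb2 window lie after the GENCODE M21 start of 108479736. Only the bases before every one of these starts are printed, chr12:31265043-31265145 and chr9:108479612-108479735, with CpG dinucleotides in capitals.
Lamb1: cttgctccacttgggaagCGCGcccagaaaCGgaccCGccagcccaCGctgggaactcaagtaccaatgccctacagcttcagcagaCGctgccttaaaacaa
Lamb2: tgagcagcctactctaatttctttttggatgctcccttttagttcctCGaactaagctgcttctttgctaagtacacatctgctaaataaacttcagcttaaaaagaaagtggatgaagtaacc
The printed stretch held 6 CpG in 103 bases for Lamb1 and 1 CpG in 124 bases for Lamb2. The whole Lamb1 window held 14 CpG, 62.0% G and C, and 2 GC boxes (GGGCGG on either strand), both after the deposited start. The whole Lamb2 window held 3 CpG, 43.6% G and C, and no GC box. Over 32851 mouse windows of 250 bases the median was 6 CpG and 52.4% G and C, and 32.7% held a GC box. Neither window held TATAAA (12.4% of all windows) or TGACTCA, the AP-1 site (4.46%), on either strand. These letters describe the windows and show no factor bound there.

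Lamb1, the widely expressed beta-1 chain, was at 128, 86.8 and 112 TPM in saline replicates 1 to 3 and at 94.98, 84.96 and 101 TPM with vasostatin-2. Saline replicate 1 was highest, vasostatin-2 replicate 2 lowest, and the groups overlapped. Its log2 fold change was −0.20 (SE 0.13, 95% interval −0.51 to 0.11; edgeR adjusted p = 0.792), and −0.31 (adjusted p = 0.385) without saline replicate 2 but −0.086 without saline replicate 1. Lamb2, the beta-2 chain known from the neuromuscular junction, the kidney glomerulus and vascular smooth muscle, was at 78.8, 58.9 and 87.0 TPM with saline and at 77.1, 95.1 and 95.2 TPM with vasostatin-2. Vasostatin-2 replicates 2 and 3 lay above every saline library, and replicate 1 lay among them. Its log2 fold change was 0.27 (SE 0.14, 95% interval −0.064 to 0.60; edgeR adjusted p = 0.733). It was 0.15 without saline replicate 2 but 0.37 without saline replicate 3 (adjusted p = 0.641).

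Taken as a ratio within each library, which does not depend on how the library was scaled, the TPM of Lamb1 over that of Lamb2 was 1.62, 1.47 and 1.28 with saline and 1.23, 0.893 and 1.06 with vasostatin-2. Every vasostatin-2 library lay below every saline library, with a gap between 1.28 and 1.23. The mean ratio was 1.46 ± 0.171 with saline and 1.06 ± 0.169 with vasostatin-2 (SD, n = 3 each), a log2 difference of −0.46. The exact two-sided permutation test gave p = 0.1, the smallest that 3 against 3 libraries allow, and p = 0.6 after Benjamini-Hochberg adjustment over the 6 ratios tested, so the difference did not pass. It was between −0.58 and −0.35 when single libraries were left out. Beta-1 made up 59.1 ± 2.90% of the beta chain TPM with saline and 51.2 ± 3.99% with vasostatin-2. The summed beta chain level was 184 ± 33.1 and 183 ± 12.2 TPM in the same order.

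Several marker lists differed between the libraries along with the ratio. The summed level of contractile smooth muscle markers was 1414, 824 and 1819 TPM in saline replicates 1 to 3 and 882, 2103 and 2170 TPM with vasostatin-2, so vasostatin-2 replicates 2 and 3, with the lowest ratios, had the highest marker level. Saline replicate 2 and vasostatin-2 replicate 1, the libraries lowest in these markers, had ratios of 1.47 and 1.23. All 10 smooth muscle markers had a fitted log2 fold change above 0, with a median of 0.36 and 0 called. Adventitial fibroblast markers were likewise above 0 in 8 of 8, with a summed level of 2508 to 4096 TPM with saline and 3877 to 4247 TPM with vasostatin-2. Of these, edgeR called 0 and DESeq2 called 1, Pdgfra (log2 fold change 0.56, DESeq2 adjusted p = 0.0143), where it called 0.776% of all genes. Macrophage markers were above 0 in 6 of 7, with 0 called. Adgre1, C1qa and Fcgr1 had an unadjusted p under 0.05 (edgeR) in the higher direction (3.29% of all genes). The same 3 were higher without overlap in CPM (6.07% of all genes). The macrophage marker sums, led by Lyz2, overlapped, at 8933 to 13315 TPM with saline and 10924 to 11828 TPM with vasostatin-2. Neutrophil markers summed to 781, 897 and 527 TPM with saline and to 587, 200 and 279 TPM with vasostatin-2, with 7 of 7 below 0, a median of −1.01 and 0 called. The libraries with the lowest ratios, vasostatin-2 replicates 2 and 3, were also the lowest in neutrophil markers. Red cell markers were below 0 in 7 of 7, with a median of −2.43 and 0 called, and summed to 1406 and 1149 TPM in those libraries against 7013 to 43391 TPM in the other 4. None of these markers was at 0 in all libraries, and the part of these lists in the ratio was not tested.

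**Figure D2:**
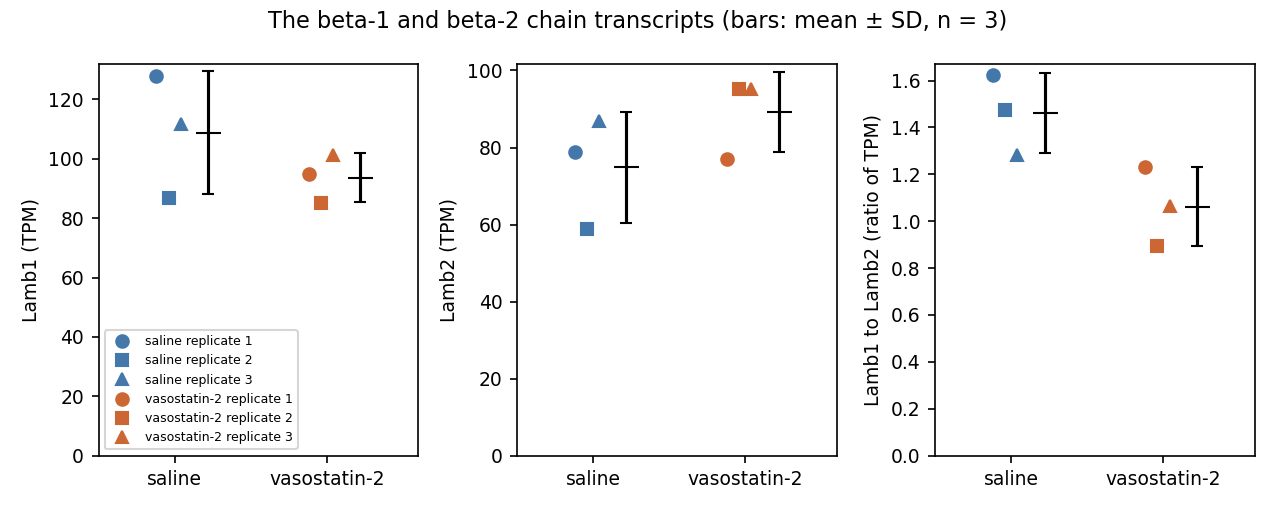
TPM of Lamb1 (left), TPM of Lamb2 (middle) and their ratio (right) in each library, with bars for the mean ± SD of 3 libraries. The ratio runs from 1.28 to 1.62 with saline and from 0.893 to 1.23 with vasostatin-2, while the TPM of each gene overlaps between the groups.

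Among alpha chains, Lama4 was the main transcript. The alpha-4 chain is the short-armed alpha chain of endothelium and other mesenchymal tissues, and Lama4 lies on chromosome 10 from 38963989 to 39110188. It was at 112, 76.1 and 104 TPM with saline and at 86.6, 84.0 and 98.4 TPM with vasostatin-2, with the lowest library, saline replicate 2, in the group that also held the highest. Lama4 made up 75.4% to 83.3% of the summed TPM of the 5 alpha chains, and its log2 fold change was −0.10 (SE 0.13; edgeR adjusted p = 0.902). It was −0.22 without saline replicate 2 and −0.013 without saline replicate 1.

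Lama5, on chromosome 2 from 180176373 to 180225904, encodes the alpha-5 chain, which in vessels belongs to the mature endothelial basement membrane. It was at 12.9, 13.8 and 15.7 TPM with saline and at 14.0, 13.2 and 16.4 TPM with vasostatin-2, the narrowest spread of the 10 genes, with a highest level 1.27 times its lowest. Its log2 fold change was 0.047 (SE 0.11; edgeR adjusted p = 0.948). The ratio of Lama4 to Lama5 was 6.94 ± 1.58 with saline and 6.19 ± 0.193 with vasostatin-2 (SD, n = 3 each; exact permutation p = 0.7, adjusted p = 0.84), and the wide saline range rested on 8.64 in saline replicate 1.

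Lama2 had the largest fitted change of the 10 genes. It encodes the alpha-2 chain, best known from the basement membranes of skeletal muscle and Schwann cells, where its loss causes muscular dystrophy. It was at 8.29, 6.01 and 13.1 TPM with saline and at 10.1, 13.2 and 11.7 TPM with vasostatin-2. Saline replicate 3 lay at the level of the highest vasostatin-2 library and the other saline libraries lay below all 3. The log2 fold change was 0.37 (SE 0.25, 95% interval −0.24 to 0.97; edgeR adjusted p = 0.802), 0.70 without saline replicate 3 (adjusted p = 0.441) and 0.17 without saline replicate 2. Over all settings run its adjusted p lay between 0.441 and 1.00.

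Markers of other cell types stood beside the Lama2 values. Saline replicate 3, the highest saline library for Lama2, was the one with 968 TPM of Schwann cell markers. Of those 12 markers, 9 of the 11 tested had a log2 fold change below 0, none was at 0 throughout, and the range was 195 to 968 TPM with saline and 225 to 304 TPM with vasostatin-2. Vasostatin-2 replicate 3, with 1607 TPM of skeletal muscle markers, was at 11.7 TPM of Lama2, below vasostatin-2 replicate 2 at 13.2 TPM, whose muscle marker level was 131 TPM. Adventitial fibroblast markers, like Lama2, were lowest in saline replicate 2 (2508 TPM) and next lowest in saline replicate 1 (3363 TPM), against 3877 to 4247 TPM in the other 4 libraries. Contractile smooth muscle markers were also lowest in saline replicate 2 (824 TPM) and were highest, at 1819 to 2170 TPM, in the 3 libraries highest in Lama2. The part of these lists in the Lama2 values was not tested.

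The deposited table places Lama2 on the plus strand of chromosome 10 from 26949740 to 27617191, whereas the GENCODE M21 annotation of the same build has it on the minus strand from 26980036 to 27619758. The strand also differed for 2472 of 17692 genes matched by symbol (14.0%), and Lama2 was the only 1 of the 10 genes among them. The deposited start is exactly that of Gm48084, an antisense gene on the plus strand from 26949740 to 26982036. The sources used here do not give strandedness, so reads of the coding gene and of its antisense partners cannot be told apart. The ratio of Lama2 to Lama4 was 0.0742, 0.0789 and 0.126 with saline and 0.116, 0.157 and 0.119 with vasostatin-2, and the groups overlapped (log2 difference 0.52, exact permutation p = 0.3, adjusted p = 0.6).

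Gamma chain transcripts were almost wholly Lamc1, which made up 96.8% to 97.6% of gamma chain TPM. Gamma-1, the chain to which nidogen binds, is encoded on chromosome 1 from 153218922 to 153332786. Lamc1 was at 142, 101 and 149 TPM with saline and at 126, 119 and 138 TPM with vasostatin-2, so the vasostatin-2 libraries lay within the saline range. Its log2 fold change was −0.015 (SE 0.13; edgeR adjusted p = 0.991).

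Lamc3, which encodes the rarer gamma-3 chain, was the lowest of the 10 genes. It was at 0.210, 0.490 and 0.510 TPM with saline and at 0.470, 0.330 and 0.380 TPM with vasostatin-2, on 16.6 to 42.0 estimated counts per library. The part of counting error in its spread was not tested. Saline replicate 1 was the lowest library and the groups overlapped. Its log2 fold change was −0.071 (SE 0.38; edgeR adjusted p = 0.980), and −0.39 without saline replicate 1. Its deposited start on chromosome 2, 31886934, is that of the antisense gene Gm13441, and GENCODE M21 begins Lamc3 at 31887291. The ratio of Lamc3 to Lamc1 had a log2 difference of 0.068 (exact permutation p = 0.9, adjusted p = 0.9).

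Alpha chains summed to 0.862 to 0.937 of the gamma sum and beta chains to 1.30 to 1.47 of it. Of laminin chains outside the 10 genes, 3 are given here. Lama3, an alpha chain of epithelia, was at 0.880 to 2.79 TPM. Lamb3, a beta chain of epithelia, was at 0.180 to 0.470 TPM. Lama1, an embryonic alpha chain, was at 0.0200 to 0.120 TPM on 1 to 11 estimated counts and was not tested.

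Nid1 was the most abundant of the 10 genes. Nidogen-1 lies on chromosome 13 from 13437602 to 13512275. It was at 232, 149 and 247 TPM with saline and at 204, 195 and 229 TPM with vasostatin-2, with group means of 209 ± 53.0 and 209 ± 17.2 TPM (SD, n = 3 each). The lowest library was saline replicate 2, and without it the log2 fold change was −0.15 in place of 0.018 (SE 0.17; edgeR adjusted p = 0.991 with all libraries and 0.594 without that one).

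Nid2, on chromosome 14 from 19751257 to 19811787, encodes nidogen-2, the second nidogen, which is prominent in vessel walls. It was at 52.9, 35.3 and 42.05 TPM with saline and at 40.6, 35.6 and 41.9 TPM with vasostatin-2. Saline replicate 1 was the highest library, and without it the log2 fold change was 0.015 in place of −0.13 (SE 0.13; edgeR adjusted p = 0.873 with all libraries and 0.989 without that one). Nid1 exceeded Nid2 by 4.21 to 5.87 times, and the ratio did not separate the groups (log2 difference 0.16, exact permutation p = 0.4, adjusted p = 0.6). The difference was 0.31 without saline replicate 3 and 0.067 without saline replicate 2. The nidogens together were at 1.83 to 2.01 times the TPM of Lamc1.

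Hspg2, the perlecan gene on chromosome 4 from 137468751 to 137570630, had the most counts of the 10 genes, between 13586 and 19529 per library. Its TPM was 136, 95.2 and 127 with saline and 123, 108 and 142 with vasostatin-2, and the highest and lowest libraries came from different groups. The log2 fold change was 0.076 (SE 0.15; edgeR adjusted p = 0.938). The ratio of Hspg2 to Lamc1 was 0.917 ± 0.0563 with saline and 0.969 ± 0.0602 with vasostatin-2 (SD, n = 3 each; log2 difference 0.080, exact permutation p = 0.4, adjusted p = 0.6). The difference was 0.13 without vasostatin-2 replicate 2 and 0.028 without saline replicate 3.

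By mean TPM over the 6 libraries the order was Nid1 (209), Lamc1 (129), Hspg2 (122), Lamb1 (101), Lama4 (93.5), Lamb2 (82.0), Nid2 (41.4), Lama5 (14.3), Lama2 (10.4) and Lamc3 (0.398). The ranges of neighbours overlapped except between Lamb2 and Nid2, between Nid2 and Lama5, and between Lama2 and Lamc3. Within single libraries Nid1 was above Lamc1, Hspg2 above Lamb1 and Lamb1 above Lama4 in 6 of 6. Nid1 ranked 737 among the 18476 genes of the table and Lama2 9301.

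**Figure D3:**
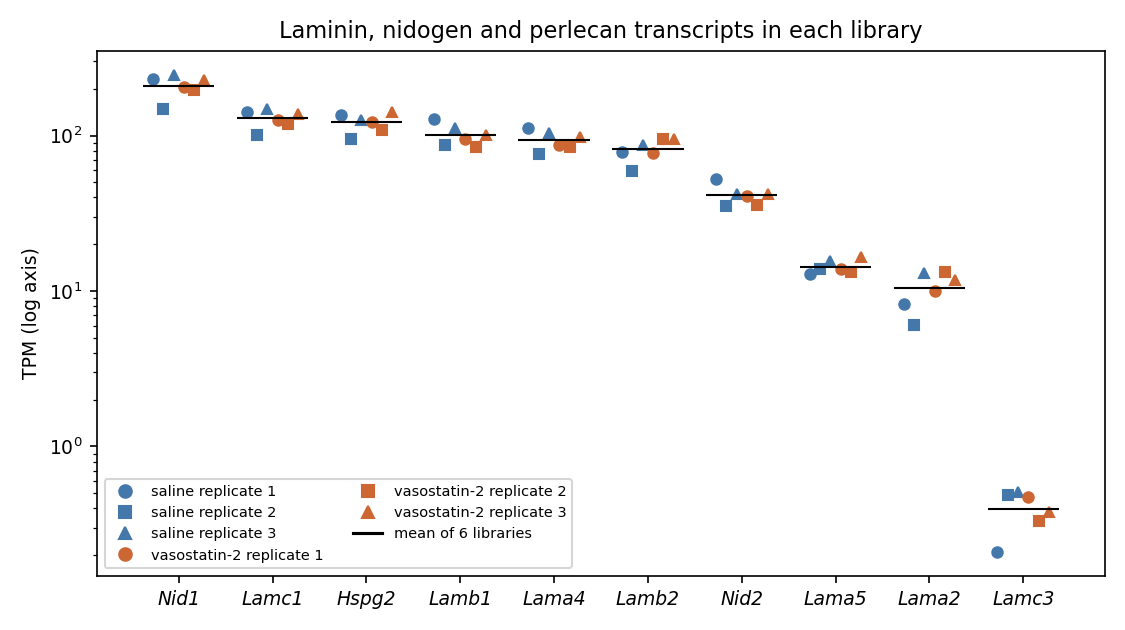
TPM of each gene in each of the 6 libraries on a log axis, ordered by the mean (black line). Nid1 has the highest mean at 209 TPM and Lamc3 the lowest at 0.398 TPM, and the saline and vasostatin-2 points overlap in every gene.

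Saline replicate 2 was the lowest library in 7 of the 10 genes, and the 10 genes summed to 622 TPM there against 749 to 903 TPM in the other 5 libraries. The coefficient of variation of TPM between saline libraries was 9.91% for Lama5, 39.8% for Lama2, 41.6% for Lamc3 and 17.8% to 25.3% for the other 7 genes. Between vasostatin-2 libraries it was 7.60% to 18.0%. Saline replicate 2 also had the lowest sums of contractile smooth muscle (824 TPM) and adventitial fibroblast (2508 TPM) markers. It had the highest sums of red cell (43391 TPM), macrophage (13315 TPM), adipocyte (10267 TPM) and neutrophil (897 TPM) markers. Single macrophage markers were split there, with Lyz2 (9657.5 TPM) and Cd68 (1402 TPM) highest but Mrc1 (200 TPM) and Fcgr1 (119 TPM) lowest. Of adipocyte markers, Fabp4 (7943 TPM) and Cidec (559 TPM) were highest there. Adipoq, Plin1, Lep and Retn were highest in other libraries. In saline replicate 3 all 10 genes lay above their means, by 0.036 (Nid2) to 0.42 (Lamc3) on the log2 scale. In saline replicate 1 they lay on both sides, with Nid2 at 0.37 and Lamc3 at −0.86. Endothelial markers varied less as a sum, from 1242 TPM in saline replicate 2 to 1510 TPM in saline replicate 3. Between the groups 5 of the 11 endothelial markers were above 0 and 6 below, with 0 called. Cdh5, Erg and Robo4 had an unadjusted p under 0.05 (edgeR) in the lower direction (3.85% of all genes). Cldn5 had one in the higher direction (3.29% of all genes). The part of these marker lists in the spread was not tested.

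**Figure D4:**
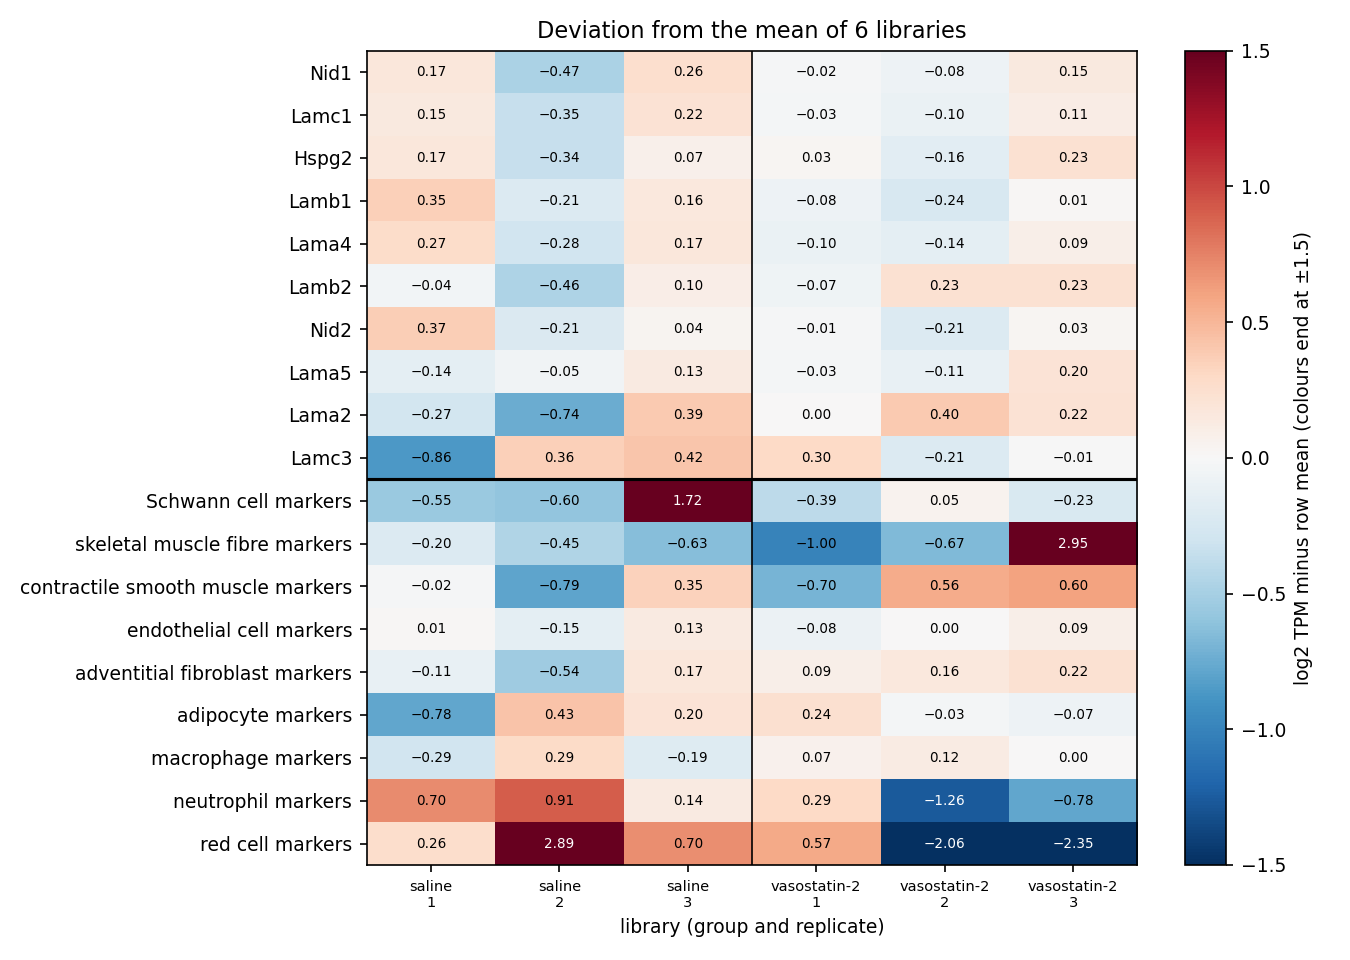
Log2 TPM of each of the 10 genes, and of the summed TPM of 9 lists of cell type markers, minus the mean of the row over the 6 libraries (columns; red above, blue below, colours end at ±1.5). Nid1 and Lamb2 lie 0.47 and 0.46 below their means in saline replicate 2, where red cell markers lie 2.89 above theirs.

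The partners of these proteins were read from 8 lists with 96 genes in the table, of which 91 were tested. edgeR called 0 of the 91 (0% of all genes). DESeq2 called 2, Col4a6 and Adamts4, where it called 0.776% of all genes. At an unadjusted p under 0.05 there were 4 genes higher and 7 lower, or 12.1%, where 7.14% of all genes had such a p (3.29% higher and 3.85% lower).

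The list of basement membrane collagens held 8 genes, Col4a1 to Col4a6, Col15a1 and Col18a1, of which 7 were tested. Type IV collagen is the second network of the basement membrane. Col4a1 and Col4a2, its major chains, were at 426 ± 26.8 and 237 ± 17.5 TPM with saline and at 346 ± 29.7 and 196 ± 18.5 TPM with vasostatin-2 (SD, n = 3 each). Both lay lower in every vasostatin-2 library, with log2 fold changes of −0.29 (SE 0.11; edgeR adjusted p = 0.681) and −0.26 (SE 0.10; adjusted p = 0.684). Of the 7 collagen genes tested, 3 were lower without overlap in CPM (Col4a1, Col4a2 and Col15a1) and 2 were higher (Col4a5 and Col4a6). Over all genes, non-overlap in the lower direction was seen in 6.72% and in the higher direction in 6.07%.

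Col4a5 and Col4a6, chains that assemble with each other and are known from the smooth muscle basement membrane, lay the other way. Col4a6 was at 0.640, 0.660 and 1.05 TPM with saline and at 1.41, 1.92 and 1.70 TPM with vasostatin-2, on 39 to 122 counts (log2 fold change 1.08, SE 0.24; edgeR adjusted p = 0.476, DESeq2 adjusted p = 0.0314). Col4a5 was at 6.99 ± 2.52 TPM with saline and 10.4 ± 0.951 TPM with vasostatin-2 (log2 fold change 0.60, SE 0.24; edgeR adjusted p = 0.684). Neither passed edgeR's test, and they are named here after their values were seen. Over the whole list, with Col15a1 and Col18a1 included, the median log2 fold change was −0.075, with 3 genes above 0 and 4 below. It is not a median of the type IV chains alone.

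The laminin receptors were led by Itgb1, the integrin beta-1 subunit, at 386 ± 62.0 TPM with saline and 388 ± 32.5 TPM with vasostatin-2 (SD, n = 3 each; log2 fold change 0.019, edgeR adjusted p = 0.985), and by Cd151, a tetraspanin that binds laminin-binding integrins, with a log2 fold change of 0.13 (edgeR adjusted p = 0.870). Of 10 receptors 8 were above 0 and 2 below, with a median of 0.11, 0 called and 0 with an unadjusted p under 0.05. Of 11 dystroglycan-associated genes tested 8 were above 0 and 3 below, with a median of 0.072 and 0 with an unadjusted p under 0.05. The most abundant were Sgce, a sarcoglycan, and Utrn, utrophin, with log2 fold changes of 0.13 and 0.061 (edgeR adjusted p = 0.865 and 0.940).

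Dystroglycan binds laminin through sugars added by a dedicated set of enzymes, of which 12 were tested. None was called, 9 were above 0, and 2, Pomt1 and Pomk, had an unadjusted p under 0.05 in the higher direction (3.29% of all genes). Pomgnt1 and Rxylt1, the most abundant, had log2 fold changes of 0.0057 and −0.10. Of 18 genes for heparan sulphate synthesis and editing, the chains that perlecan carries, 10 were above 0 and 8 below, with a median of 0.012 and 0 called. Xylt1 (−0.41) and Hpse (−0.23) had an unadjusted p under 0.05 in the lower direction (3.85% of all genes). Sulf2, an extracellular sulphatase, was at 164 ± 41.5 TPM with saline and 165 ± 11.1 TPM with vasostatin-2 (SD, n = 3 each), and Ext2, a polymerase subunit, had a log2 fold change of 0.051.

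Of 14 proteases tested that can act on basement membranes, 5 were above 0 and 9 below, with a median of −0.095. Adamts4, an aggrecanase, was at 36.1, 24.0 and 30.2 TPM with saline and at 19.7, 16.3 and 19.0 TPM with vasostatin-2, with no overlap (log2 fold change −0.70, SE 0.13; edgeR adjusted p = 0.458, DESeq2 adjusted p = 0.00280). Mmp14, a membrane-bound matrix protease, had a log2 fold change of −0.50 (edgeR adjusted p = 0.681). Adamts4 and Mmp14 were the 2 proteases with an unadjusted p under 0.05 in edgeR (3.85% of all genes in the lower direction). Of the 14 proteases 3, Adamts4 and Mmp14 among them, were lower without overlap in CPM, as were 6.72% of all genes. The most abundant, the cathepsins Ctsb and Ctss, had log2 fold changes of 0.14 and 0.19 (edgeR adjusted p = 0.924 and 0.933). Of 16 other basement membrane proteins 9 were above 0, with a median of 0.029 and 0 called, and their most abundant members, Sparc and Fbln2, had log2 fold changes of −0.076 and 0.22 (edgeR adjusted p = 0.951 and 0.825). Smoc2, at −0.55, was the only 1 of the 16 with an unadjusted p under 0.05 (3.85% of all genes in the lower direction).

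**Figure D5:**
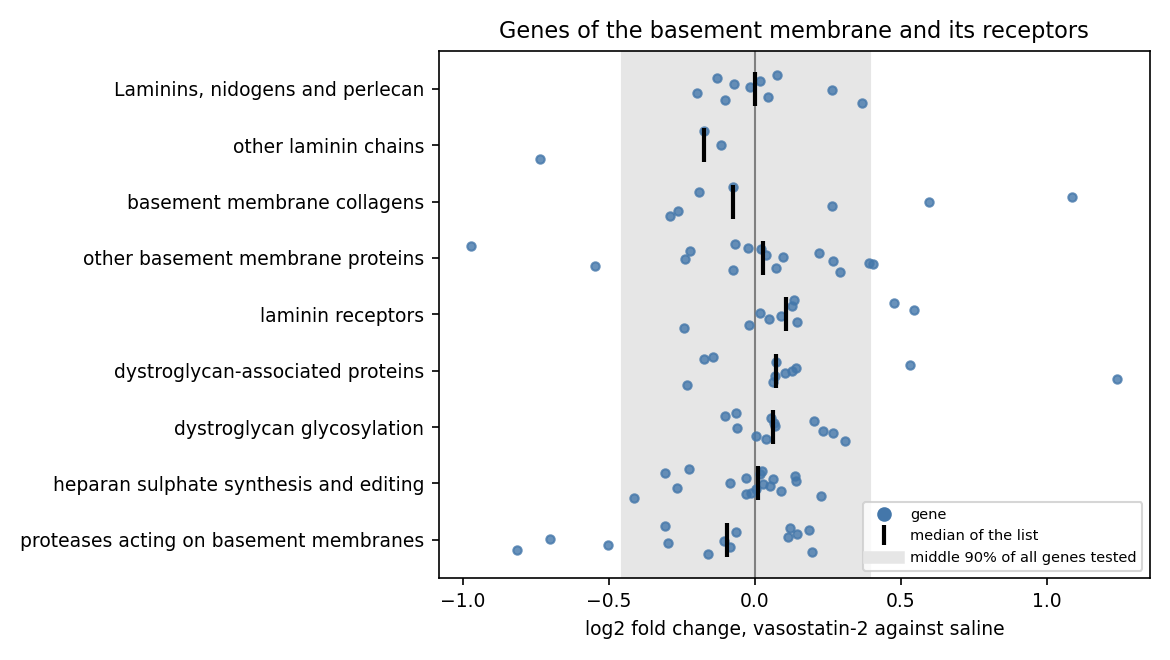
Fitted log2 fold change (x axis, vasostatin-2 against saline) of each tested gene in the lists of basement membrane genes and their partners, with the median of each list (black bar) and the middle 90% of all 14557 genes tested (grey, −0.46 to 0.40). The 10 laminin, nidogen and perlecan genes all fall inside the grey band, while Col4a6 at 1.08 and Adamts4 at −0.70 fall outside it.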

How the data were processed

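Bulk RNA of whole injured arteries was sequenced in 6 libraries. Alignment and testing tools listed in the submitters' processing notes are HISAT2 2.1.0 and DESeq2 1.26.0, with build GRCm38.p6. The counting tool and strandedness are not given in the sources used here. The authors deposited estimated counts (65.6% exactly whole), FPKM and TPM per gene, and a log2 fold change with a p-value and q-value for the comparison. The members and gene lists were chosen with earlier results of these data known.

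Counts were rounded, scaled by TMM and tested with edgeR 4.0.16 (R 4.3.3; filterByExpr, quasi-likelihood, Benjamini-Hochberg over 14557 genes, threshold 0.05). DESeq2 1.42.0 and limma 3.58.1 were alternatives, with other scalings, filters, a replicate block and left-out libraries. The fit was tested on simulated data. CPM used a prior count of 2 on the log scale. Ratios of TPM used exact permutation tests (scipy 1.17.1), and figures used matplotlib 3.10.9. Named genes were the 10 members, the 2 most abundant genes of each list where none was called, and the 3 genes nearest in pattern to each of the 2 most variable members. Exceptions are marked in the text, have an unadjusted p under 0.05 or are single cell type markers named after their values were seen. Replicates differed by more than sampling noise (chi-square per degree of freedom 15.4 to 79.3). The labels call the libraries biological replicates, and p-values measure the spread between them. One result is not reported here.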

Additional observations from a re-analysis of the deposited data

How the results depend on the processing

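None of the 10 genes was called under any of the alternatives run, with a lowest adjusted p of 0.385 (Lamb1 without saline replicate 2, edgeR). The number of genes called over the whole table was 0 except for 113 with DESeq2, and between 0 and 2 when single libraries were left out. In 132 of 150 combinations of gene and alternative the direction was as reported and in 18 it turned. With limma-voom the log2 fold change was −0.017 for Lama5, −0.085 for Nid1 and −0.018 for Hspg2. Without both replicates 3 it was 0.013 for Lamc1 and 0.12 for Lamc3, and the log2 difference of the Hspg2 to Lamc1 ratio was −0.013. With single libraries left out the ranges were −0.053 to 0.11 for Lama5, −0.14 to 0.076 for Lamc1, −0.39 to 0.14 for Lamc3, −0.15 to 0.14 for Nid1, −0.22 to 0.015 for Nid2 and −0.031 to 0.17 for Hspg2. For the ratios they were −0.29 to 0.030 for Lama4 to Lama5 and −0.42 to 0.44 for Lamc3 to Lamc1. The cause was not tested. Same-numbered libraries did not deviate together (correlations −0.119, 0.0251 and 0.0273), so the numbers were not taken to pair samples. With the replicate block 0 genes were called. Pairing by number leaves the Lamb1 to Lamb2 log2 difference at −0.46 by construction. Its exact permutation p was then 0.25, the smallest that 3 pairs allow, so this setting could not weaken or strengthen the result. With 3 libraries a group, the 95% intervals of Lama2, Lamb2 and Lamc3 still held a 1.5-fold change, and 1 library could move a fitted value by more than its size.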

Other observations

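The genes whose pattern over the 6 libraries lay nearest to Lama2, by root mean square distance of log2 CPM deviations in a search of 11133 genes (mean TPM 5 or more), were Mrgprf (0.104), Reck (0.117) and Dmpk (0.122). Mrgprf was at 35.6, 25.9 and 48.1 TPM with saline and at 44.1, 50.7 and 52.1 TPM with vasostatin-2, with saline replicate 2 lowest as for Lama2. Nearest to Lamc3 among 11134 genes were Cidec (0.118), Cyp4b1 (0.129) and Cfd (0.137). Cidec, a lipid droplet protein of adipocytes, was at 207 TPM in saline replicate 1 and at 348 to 559 TPM in the other 5 libraries. Saline replicate 1 also had the lowest adipocyte marker sum (4426 TPM). Cidec is itself 1 of the 6 genes in that sum, so the sum is not a separate observation. Nearness over 6 libraries is a description.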
